A study of Homo sapiens with 32 samples.

Results

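The canonical Notch receptors and ligands of human cells are 9 genes: the receptors NOTCH1, NOTCH2, NOTCH3 and NOTCH4 and the ligands JAG1, JAG2, DLL1, DLL3 and DLL4. They were taken as every probe set of the array whose annotated gene symbol is exactly one of these names. This gave 25 probe sets, out of 41091 with a single gene symbol, and 9 of the 19775 genes tested. RNA levels were measured on 32 arrays of 2 established human lung cancer lines, A549, from an adenocarcinoma, and H460a, from a large cell carcinoma. The series text writes the second line as H460. For each line there were 4 arrays of cells given 2 µM RO4929097 for 24 h, 4 of cells given vehicle for 24 h, 4 of cells given RO4929097 for 6 h and 4 of cells given vehicle for 6 h. RO4929097 is a small-molecule gamma-secretase inhibitor, called GSI from here on. Each line comes from a single tumour, both carry all conditions of the study, and no Notch gene was altered on purpose. Nothing in the labels states whether replicates were cultured separately, so the p-values reflect array-to-array spread that could be technical.

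Notch receptors are membrane proteins that are switched on by ligands on a neighbouring cell. Ligand pulling exposes the receptor to an ADAM protease, and gamma-secretase then cuts it within the membrane and frees its intracellular part, which joins the DNA-binding protein RBPJ and turns on genes such as HES1. JAG1, JAG2, DLL1 and DLL4 can activate receptors on the next cell, while DLL3 is mostly kept inside the cell and does not activate them from outside. A gamma-secretase inhibitor blocks the last cut, so it acts on receptor protein that is already made, and the arrays measured the RNA of receptors and ligands, not that cut.

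Values are log2 intensities. A level was compared only with the same probe set's level in other samples, because probe sets differ in how brightly they report a given amount of RNA. The background level was the 95th percentile of the levels of 21 genes restricted to other tissues, and was 7.11 in A549 and 7.04 in H460a. Mean intensities were lower on the 4 A549 vehicle arrays at 6 h (468 to 496) and on GSI replicates 1 and 2 of A549 at 6 h (496 to 531) than on GSI replicates 3 and 4 of A549 at 6 h (583 to 589) and the other 24 arrays (570 to 613). Replicate 3 of H460a vehicle at 6 h had a 3' minus 5' difference of 2.19 for ACTB, against 0.14 to 0.42 on the other 31 arrays. The number of arrays limits the precision: a difference between groups of 4 had a median standard error of 0.087 on the log2 scale. Differences below carry ± limma's standard error (n = 4 arrays a group), and a gene was called at a Benjamini-Hochberg adjusted p under 0.05 over all 19775 genes.

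On the brightest probe set of each gene, 7 of the 9 lay above the background level on all 16 arrays of each line. These were NOTCH1, NOTCH2, NOTCH3, JAG1, JAG2, DLL3 and DLL4. Some of their other probe sets did not. A DLL3 probe set exceeded the background on 4 of 16 A549 arrays and 9 of 16 H460a arrays. A NOTCH2 probe set and a pair of JAG1 probe sets did so on 0 arrays of either line. NOTCH4, a receptor known mainly from blood vessel endothelium, was at 6.89 to 7.15 in A549 and at 6.52 to 7.06 in H460a, and exceeded the background on 2 of 16 A549 arrays and 3 of 16 H460a arrays. DLL1 was at 5.46 to 5.88 in A549 and at 5.34 to 5.71 in H460a, below the background on all 32 arrays. The lines showed some epithelial markers: the keratins KRT8 and KRT18 were above the background in both, but EPCAM, at 4.54 to 6.11 over the vehicle arrays, was below it in both. Of 7 endothelial markers, 3 in A549 (PECAM1, TEK and ROBO4) and 4 in H460a (the same and KDR) were above the background. Among the others, CDH5 and VWF were below it in every group. The leukocyte markers CD14, ITGAM and CD79A were also above the background in both lines. The highest leukocyte marker level was 8.8 in A549 and 8.63 in H460a. Fibroblast markers reached 9.26 in A549 and 9.18 in H460a. A level above the background therefore does not by itself show expression for genes near or under such levels. NOTCH1, JAG2, DLL3 and DLL4 are such genes.

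**Figure D1:**
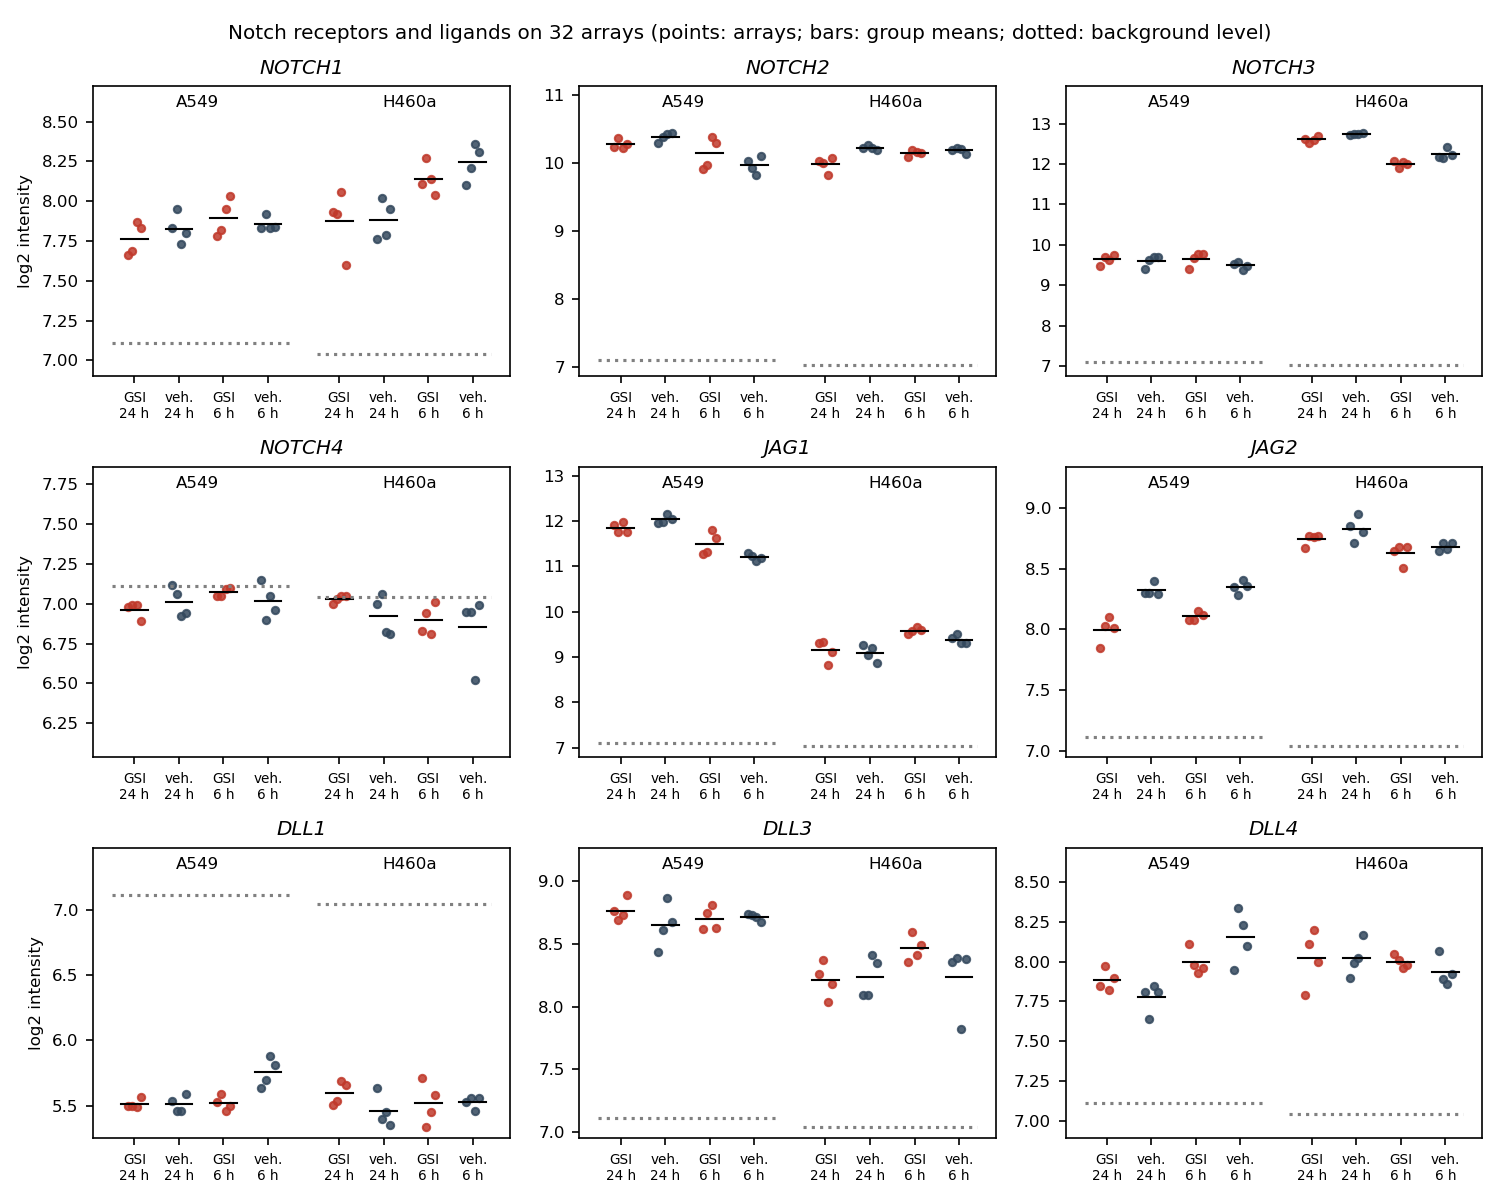
The log2 intensity of the 9 genes is plotted for each of 32 arrays, with GSI in red, vehicle in dark blue, a bar at each group mean and a dotted line at the background level of each line (vertical axes differ between panels). NOTCH3 is lower and JAG1 higher in all A549 arrays than in all H460a arrays, and DLL1 lies below the background throughout.

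The lines differed most in NOTCH3 and JAG1, in opposite directions. In vehicle, with both times averaged, 6 of the 9 genes differed between A549 and H460a, against 56.7% of all genes. JAG1, DLL3 and DLL1 were the 3 higher in A549, against 28.8% of all genes, and NOTCH3, NOTCH1 and JAG2 the 3 lower, against 27.9% of all genes. The share called was thus near that of all genes, and the sizes set NOTCH3 and JAG1 apart within the family. The median absolute difference was 0.22 for the 9 genes and 0.18 for all genes.

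NOTCH3 (chr19:15159038-15200995, GRCh38.p14, minus strand) encodes a receptor best known from vascular smooth muscle. Its levels in A549 vehicle were 9.41, 9.62, 9.70 and 9.69 at 24 h and 9.52, 9.59, 9.39 and 9.49 at 6 h. In H460a vehicle they were 12.71, 12.73, 12.73 and 12.76 at 24 h and 12.18, 12.14, 12.42 and 12.22 at 6 h. Every A549 array was below every H460a array, and NOTCH3 was 7.65-fold lower in A549 (-2.94 ± 0.056, limma adjusted p = 2.25e-30). The other NOTCH3 probe set gave a smaller difference of -0.75 ± 0.14, with overlapping arrays, so the direction was shared by both probe sets but the size was not.

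JAG1 (chr20:10637684-10673999, GRCh38.p14) encodes the Jagged ligand whose loss of function causes Alagille syndrome. A549 vehicle had 11.96, 11.98, 12.15 and 12.05 at 24 h and 11.29, 11.23, 11.12 and 11.18 at 6 h. H460a vehicle had 9.26, 9.04, 9.20 and 8.87 at 24 h and 9.42, 9.50, 9.30 and 9.30 at 6 h. The arrays of the lines did not overlap, and JAG1 was 5.22-fold higher in A549 (2.38 ± 0.073, limma adjusted p = 1.72e-24). A second of its 6 probe sets, also above the background in every group of both lines, gave 2.38 ± 0.075. Another gave 2.20 ± 0.096 but averaged 6.91 in H460a vehicle at 24 h, and yet another gave 1.75 ± 0.15 but averaged 5.93 at 24 h and 6.36 at 6 h there. These levels are below the background, so the sizes from that pair are not exact. The remaining pair, with differences of 0.18 and -0.02, lay below the background in both lines and so could show little.

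The other ligands differed less between the lines. JAG2 was lower in A549 by both probe sets (-0.42 ± 0.042 and -0.50 ± 0.047), and its 8 vehicle arrays in A549 all lay below the 8 in H460a. DLL3 was higher in A549 by 0.45 ± 0.072 on its brightest probe set, while the other 3 gave 0.02 to 0.07 and did not pass the threshold. DLL4, a ligand central to vessel sprouting, differed by -0.01 ± 0.057 (95% confidence interval -0.13 to 0.11). DLL1 passed with 0.14 ± 0.051, but both of its levels were below the background.

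Among the other receptors, NOTCH1 was lower in A549 by 0.22 on the log2 scale (-0.22 ± 0.059, limma adjusted p = 0.00155), and its arrays overlapped between lines. Most of the NOTCH1 difference lay at 6 h, with vehicle means of 7.86 in A549 and 8.24 in H460a, against 7.83 and 7.88 at 24 h. NOTCH2 differed by -0.03 ± 0.054 (95% confidence interval -0.14 to 0.09). This too averages opposite directions, with vehicle means of 10.39 in A549 and 10.22 in H460a at 24 h, and 9.97 and 10.19 at 6 h. NOTCH2 has near-identical partial copies, the NOTCH2NL genes, so its probe sets may also bind their RNA, and a probe set annotated to both was left out. NOTCH4 differed by 0.12 ± 0.057 (adjusted p = 0.0616) near the background.

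**Figure D2:**
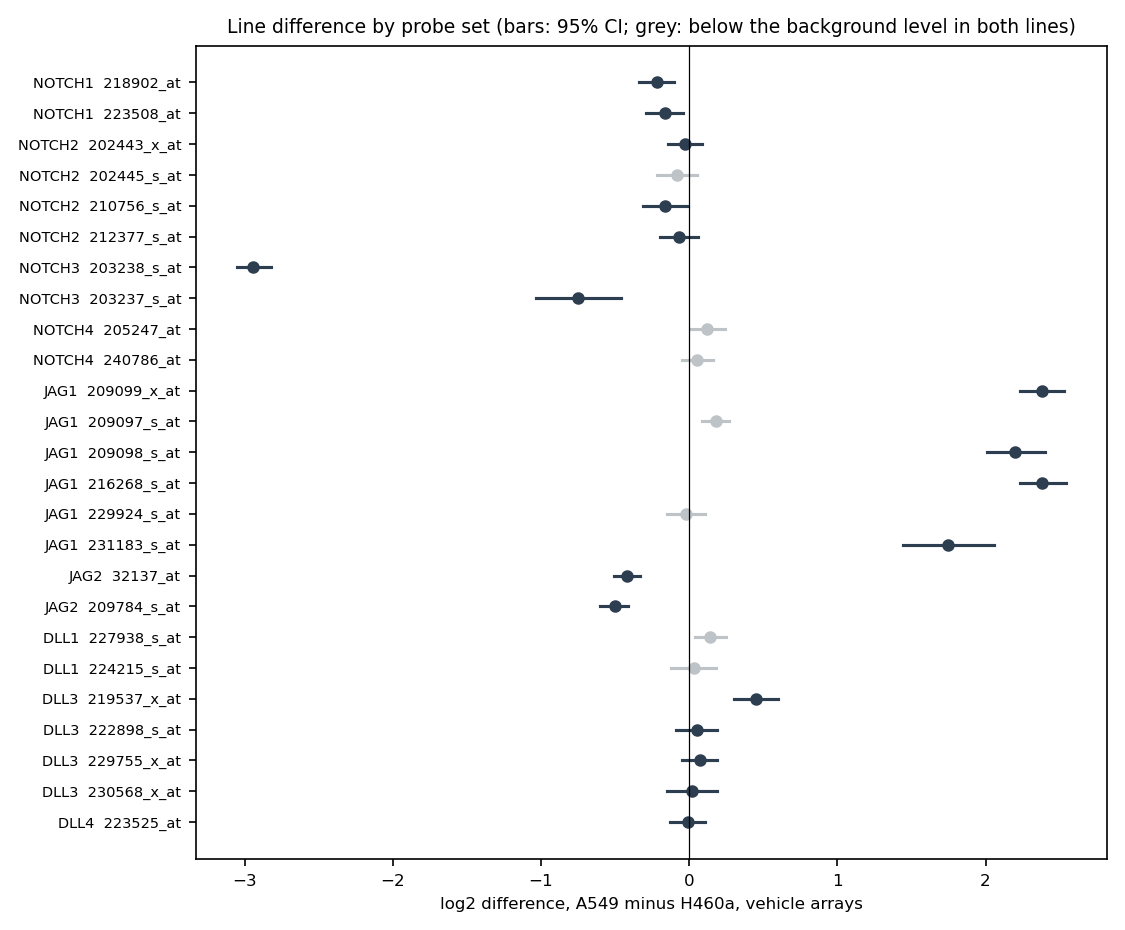
Each of the 25 probe sets is shown with its log2 difference, A549 minus H460a, over the vehicle arrays and its 95% confidence interval, in grey where it lay below the background level in both lines. Both NOTCH3 probe sets and both JAG2 probe sets are negative, and the 4 JAG1 probe sets above the background in A549 lie between 1.75 and 2.38.

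Between 24 h and 6 h in vehicle, JAG1 changed in opposite directions in the lines. In A549, 4 of the 9 genes differed at 24 h from 6 h, against 44.2% of all genes: JAG1 and NOTCH2 were higher, and DLL4 and DLL1 lower. DLL1 was below the background on all of these arrays, and its other probe set gave -0.08 ± 0.10. The DLL1 call was lost with the mean of all probe sets (-0.16, limma adjusted p = 0.0601). In H460a, 3 of the 9 differed, against 30.4% of all genes: NOTCH3 was higher, and NOTCH1 and JAG1 lower. The A549 6 h vehicle arrays are those with the low mean intensity, so the A549 values are also given after quantile normalization over all arrays. That scaling called 6 of the 9 genes in A549: the same 4, with DLL1 at -0.17 (adjusted p = 0.0377), and also JAG2 (-0.18, adjusted p = 0.0173) and DLL3 (-0.26, adjusted p = 0.0391), both lower at 24 h. The 44.2% of all genes is for the values as deposited. No share is given for the other scaling, so its count cannot be read as an excess.

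JAG1 in A549 was higher at 24 h than at 6 h by 0.83 ± 0.10 (limma adjusted p = 1.55e-07) and by 0.48 after quantile normalization (adjusted p = 3.13e-05). In H460a it was lower at 24 h (-0.29 ± 0.10, limma adjusted p = 0.0327), with all 24 h arrays under all 6 h arrays. The H460a value is near the threshold and missed it under 6 of 43 alternatives, among them without vehicle replicate 1 or 2 at 6 h or replicate 2 or 4 at 24 h (-0.34 to -0.21 when each array was left out). The difference between the lines in this change, a comparison added after the values were seen, was 1.11 ± 0.15 for JAG1 (limma adjusted p = 4.47e-07).

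NOTCH3 in H460a was higher at 24 h by 0.49 ± 0.079 (limma adjusted p = 6.4e-06), and its 4 arrays at 24 h all exceeded the 4 at 6 h, as listed above. Its other probe set gave 0.34 ± 0.20 (limma adjusted p = 0.238), with overlapping arrays. In A549 the change was 0.11 ± 0.079 (adjusted p = 0.258), and it was -0.13 after quantile normalization. NOTCH1, the receptor most often mutated in T-cell leukaemia, had 7.76, 8.02, 7.79 and 7.95 in H460a vehicle at 24 h and 8.10, 8.21, 8.36 and 8.31 at 6 h. Its 24 h arrays were all lower (-0.36 ± 0.083, limma adjusted p = 0.000695), but its other probe set showed no such change (0.00 ± 0.087).

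NOTCH2 in A549 vehicle had 10.30, 10.38, 10.43 and 10.44 at 24 h and 10.03, 9.93, 9.83 and 10.10 at 6 h. This difference of 0.42 ± 0.077 (limma adjusted p = 5.12e-05) became 0.15 after quantile normalization (adjusted p = 0.0375). Of the other NOTCH2 probe sets, 1 gave 0.43 ± 0.090, while another, also well above the background, gave -0.05 ± 0.10 with overlapping arrays. DLL4 in A549 vehicle had 7.81, 7.64, 7.85 and 7.81 at 24 h and 7.95, 8.34, 8.23 and 8.10 at 6 h, and it was lower at 24 h (-0.38 ± 0.081, limma adjusted p = 0.000323), also after quantile normalization (-0.50). In H460a neither was called, with 0.03 ± 0.077 for NOTCH2 and 0.09 ± 0.081 for DLL4. The change over time differed between the lines for 5 of the 9 genes, against 35.5% of all genes: JAG1, NOTCH2 and NOTCH1 had the more positive change in A549, and DLL4 and NOTCH3 in H460a. After quantile normalization, an alternative added after the values were seen, 4 of the 9 were called, against 31% of all genes. JAG1 (0.74 ± 0.12), DLL4 (-0.57 ± 0.12) and NOTCH3 (-0.60 ± 0.093) were called both ways, JAG2 was called as well (-0.32 ± 0.086), and NOTCH2 (0.09 ± 0.081, limma adjusted p = 0.414) and NOTCH1 (0.25 ± 0.11, limma adjusted p = 0.0981) were not.

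**Figure D3:**
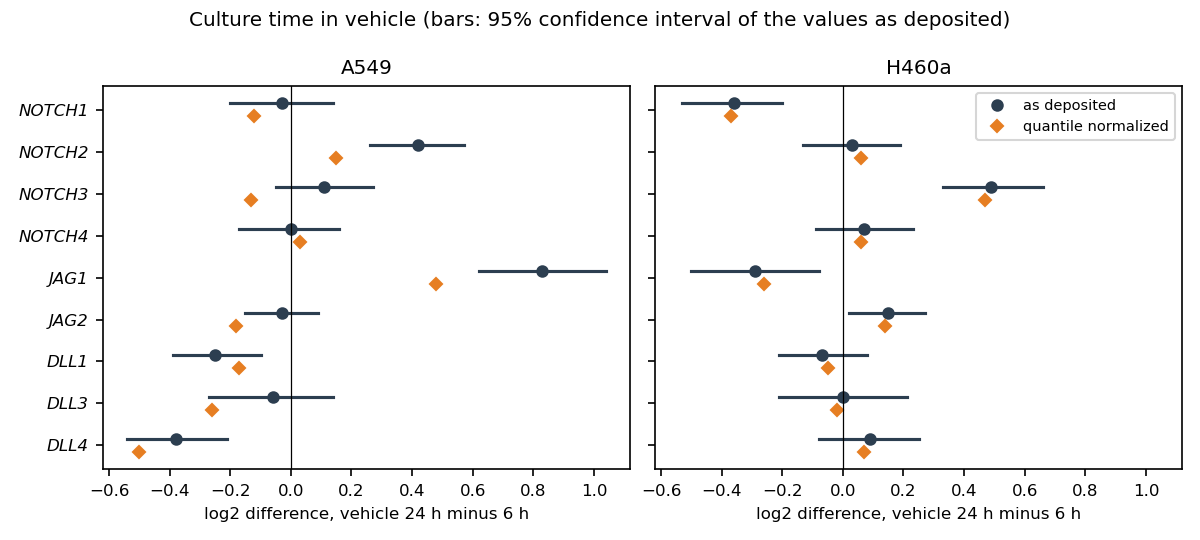
The log2 difference between 24 h and 6 h in vehicle is plotted for the 9 genes in each line, with circles and 95% confidence intervals for the values as deposited and diamonds after quantile normalization. In A549 the diamonds of JAG1 and NOTCH2 lie at 0.48 and 0.15, left of their circles at 0.83 and 0.42, while in H460a circles and diamonds nearly coincide.

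The inhibitor left most of the family without a called change. JAG2 was the only gene of the 9 called in A549 at both times, and it was lower with GSI. In A549 at 24 h, 1 of the 9 genes was called, against 2.21% of all genes, and 1 was lower, against 0.885%. At 6 h in A549, 2 of the 9 were called, against 13.1% of all genes, and both were lower, against 1.51%. In H460a 0 of the 9 were called at 24 h, against 0.00506% of all genes, and 0 at 6 h, against 0.0961%. At an unadjusted p under 0.05 in limma, H460a had 1 of the 9 at 24 h (NOTCH2) and 2 at 6 h (NOTCH3 and DLL3). The share of all genes at that threshold is not given, so these 2 counts cannot be read as an excess. HES1, a direct target of Notch signalling, fell in A549 at both times (-2.18 ± 0.13 at 24 h and -1.63 ± 0.13 at 6 h, limma adjusted p = 1.29e-13 and 8.67e-10). In H460a HES1 was below the background in every group, and its differences of -0.29 and -0.35 were not called. HEY1, another target, was above the background in H460a and gave -0.30 ± 0.078 at 24 h and -0.25 ± 0.078 at 6 h. Neither was called (limma adjusted p = 0.339 and 0.257), yet every GSI array of HEY1 lay below every vehicle array at both times. Arrays that did not overlap were found for 3.38% of all genes in H460a at 24 h and 6.73% at 6 h. The median difference of the 9 target genes in H460a was -0.02 at 24 h and -0.01 at 6 h. Some of these targets, such as HES1, HES5 and HEY2, were below the background in H460a vehicle, so the median could show little of a fall. A target response in H460a was therefore neither shown nor excluded. RNA was measured on whole cultures of a line, so fewer expressing cells and less RNA per cell cannot be told apart.

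JAG2 (chr14:105140995-105168776, GRCh38.p14, minus strand) encodes the other Jagged ligand. In A549 at 24 h it had 7.85, 8.03, 8.10 and 8.01 with GSI, against 8.30, 8.30, 8.40 and 8.29 with vehicle. At 6 h it had 8.08, 8.08, 8.15 and 8.12 with GSI, against 8.35, 8.28, 8.41 and 8.36 with vehicle. At both times every GSI array lay below every vehicle array, and the differences were -0.33 ± 0.060 at 24 h (limma adjusted p = 0.000961) and -0.24 ± 0.060 at 6 h (limma adjusted p = 0.0107).

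The 24 h difference of JAG2 was also called on its other probe set (-0.28 ± 0.066, limma adjusted p = 0.0201, adjusted over all probe sets). At 6 h that probe set gave -0.16 ± 0.066 (adjusted p = 0.141), with overlapping arrays. The 6 h call on the first probe set was lost under 4 of 44 alternatives: with a minimum difference of 0.58, with only the compared arrays fitted (-0.24, adjusted p = 0.0801), without the 3 arrays that stand apart, namely A549 GSI replicates 3 and 4 and H460a vehicle replicate 3, all at 6 h (-0.27, adjusted p = 0.236), and without A549 vehicle replicate 3 at 6 h (-0.22, adjusted p = 0.0575). It kept its direction under all 44, with values of -0.33 to -0.20.

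In H460a JAG2 had 8.67, 8.77, 8.76 and 8.77 with GSI at 24 h, against 8.85, 8.71, 8.95 and 8.80 with vehicle. At 6 h it had 8.65, 8.68, 8.51 and 8.68 with GSI, against 8.65, 8.71, 8.66 and 8.71 with vehicle. These groups overlapped, with differences of -0.08 ± 0.060 and -0.05 ± 0.060. The other JAG2 probe set gave -0.06 ± 0.066 at 24 h in H460a, with overlapping arrays. At 6 h it gave -0.16 ± 0.066 (limma adjusted p = 0.367), with every GSI array below every vehicle array. The JAG2 effect was not shown to differ between the lines: A549 minus H460a was -0.24 ± 0.085 at 24 h (limma adjusted p = 0.287, 95% confidence interval -0.41 to -0.07) and -0.19 ± 0.085 at 6 h (limma adjusted p = 0.289). On the other probe set it was -0.22 ± 0.094 at 24 h (limma adjusted p = 0.524) and 0.00 ± 0.094 at 6 h (limma adjusted p = 0.993).

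**Figure D4:**
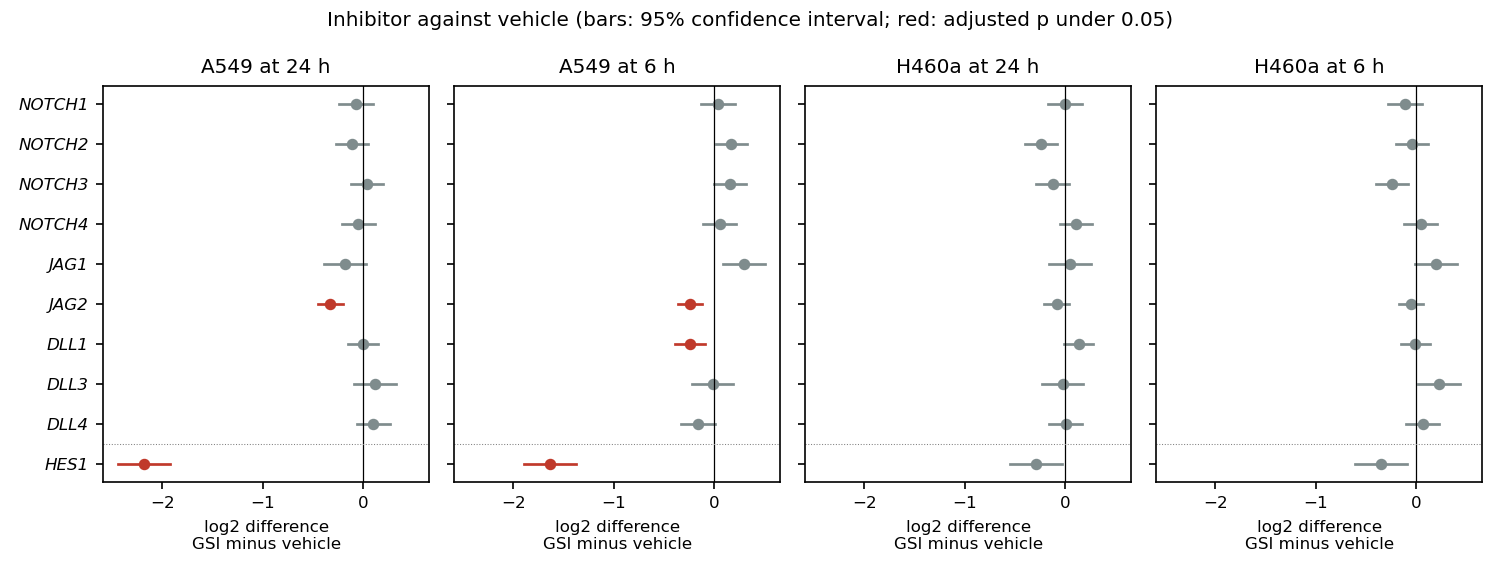
The log2 difference of GSI minus vehicle is plotted for the 9 genes and HES1 in each line at each time, with 95% confidence intervals and calls at an adjusted p under 0.05 in red. JAG2 is red in both A549 panels and HES1 lies further left, at -2.18 and -1.63, while the H460a panels have no red point.

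The genes whose pattern was most like that of JAG2 were LBH, HEY1 and HES1. Pearson's r over the 32 log2 values, after subtracting each line's mean, was 0.80 for LBH, 0.78 for HEY1 and 0.76 for HES1, the highest of 12051 genes above the background in at least 1 line. Within the 16 A549 arrays r was 0.88 for LBH, 0.84 for HEY1 and 0.90 for HES1. Within the 16 H460a arrays it was 0.60 for LBH, 0.63 for HEY1 and 0.17 for HES1. These correlations are descriptions: the arrays share the treatment groups, and r of JAG2 with the mean intensity of an array was -0.36.

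**Figure D5:**
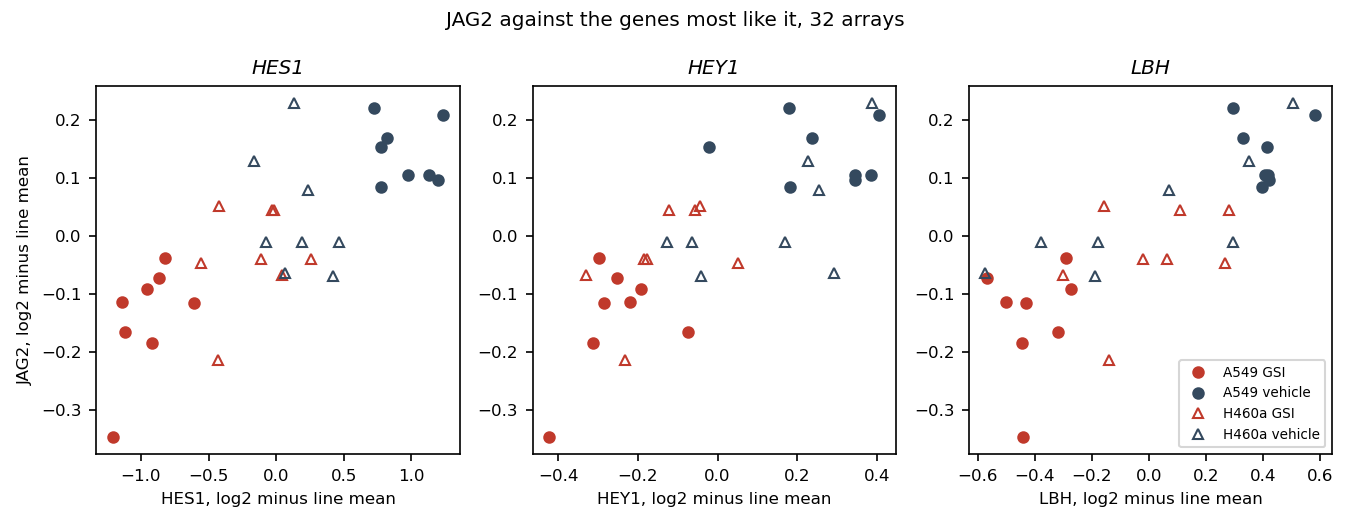
JAG2 is plotted against HES1, HEY1 and LBH on 32 arrays as log2 values minus the mean of the line, with filled circles for A549, open triangles for H460a, red for GSI and dark blue for vehicle. The A549 GSI and vehicle arrays form separate clouds in each panel, and the H460a arrays lie mostly between them for HES1.

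The promoters of JAG2 and HES1 are shown because HES1, like HEY1, is a known Notch target among the 3 genes most like JAG2. Each is the RefSeq window in GRCh38.p14 from 250 bases before to 50 bases after the gene's start, 5′ to 3′ on the gene's strand. Capitals mark TGGGAA, the core of the RBPJ site, searched on both strands. The windows are chr14:105168727-105169026 (minus strand) for JAG2 and chr3:194135898-194136197 (plus strand) for HES1.
JAG2: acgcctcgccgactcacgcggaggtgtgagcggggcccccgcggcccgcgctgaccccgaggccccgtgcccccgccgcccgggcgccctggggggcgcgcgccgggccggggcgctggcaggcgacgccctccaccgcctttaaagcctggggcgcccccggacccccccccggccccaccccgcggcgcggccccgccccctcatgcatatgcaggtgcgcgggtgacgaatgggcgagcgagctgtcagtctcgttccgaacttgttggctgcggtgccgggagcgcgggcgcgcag
HES1: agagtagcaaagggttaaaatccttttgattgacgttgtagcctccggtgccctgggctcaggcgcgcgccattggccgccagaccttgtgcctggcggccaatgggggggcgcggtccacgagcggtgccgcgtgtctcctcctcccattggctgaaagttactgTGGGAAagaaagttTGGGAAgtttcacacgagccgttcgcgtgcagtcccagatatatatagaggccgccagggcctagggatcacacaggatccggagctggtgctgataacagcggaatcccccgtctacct
The HES1 window holds 2 matches, starting 84 and 70 bases before the gene's start, and the JAG2 window holds 0. The window of LBH also holds 0, and that of HES4, a target that fell with GSI, holds 1. The window of HEY1 was not examined singly, so these counts do not compare Notch targets with other genes. Of the 9 genes, 7 were matched to a window, and 0 of these 7 held TGGGAA, against 24% of 35116 promoters. CACGNG, which includes the CACGCG site bound by HES and HEY proteins, was found in 5 of the 7, against 30.5% of all promoters. CACGCG itself was in the windows of JAG1, JAG2 and DLL4, while NOTCH2 and NOTCH3 held CACGAG. These 5 windows had a GC content of 68.7% to 79.7%, above the median of all promoters, and its part in the matches was not tested. The GC content was 79.7% in the JAG2 window and 59% in the HES1 window, with a median of 58.7% over all promoters. A match is a description of the letters and does not show binding.

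DLL1 was the other gene called in A549 at 6 h. It had 5.53, 5.59, 5.46 and 5.50 with GSI, against 5.64, 5.70, 5.88 and 5.81 with vehicle, all below the background level of 7.11. The groups did not overlap (-0.24 ± 0.072, limma adjusted p = 0.0258), but the other DLL1 probe set gave 0.13 ± 0.10, and the call was lost under 12 of 43 alternatives, among them without A549 vehicle replicate 3 or 4 or GSI replicate 3 or 4 at 6 h. Across the 32 line-centred arrays DLL1 was most like BMP8A, NECTIN4 and LRRC4 (r of 0.75, 0.72 and 0.71), and its r with the mean intensity of an array was -0.65. Without the 3 arrays that stand apart the DLL1 difference was -0.20 (adjusted p = 0.551).

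JAG1 in A549 at 6 h had 11.27, 11.31, 11.81 and 11.62 with GSI, against 11.29, 11.23, 11.12 and 11.18 with vehicle. The 2 higher GSI values are those of replicates 3 and 4, the arrays with the higher mean intensity, and the groups overlapped (0.30 ± 0.10, limma adjusted p = 0.0521). Without the 3 arrays that stand apart the difference was 0.09. At 24 h JAG1 had 11.92, 11.76, 11.98 and 11.76 with GSI, against 11.96, 11.98, 12.15 and 12.05 with vehicle, which gave -0.18 ± 0.10. In H460a JAG1 differed by 0.05 ± 0.10 at 24 h and by 0.20 ± 0.10 at 6 h, and at 6 h all GSI arrays exceeded all vehicle arrays, with an adjusted p of 0.476.

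NOTCH3 in H460a had 12.62, 12.53, 12.60 and 12.69 with GSI at 24 h, against 12.71, 12.73, 12.73 and 12.76 with vehicle. At 6 h it had 12.07, 11.89, 12.04 and 12.00 with GSI, against 12.18, 12.14, 12.42 and 12.22 with vehicle. Every GSI array was below every vehicle array at both times, yet neither difference was called (-0.12 ± 0.079 and -0.24 ± 0.079, limma adjusted p = 0.931 and 0.285). The highest vehicle value at 6 h came from replicate 3, the array with the large ACTB difference, and without it the 6 h difference was -0.18. The other NOTCH3 probe set gave -0.39 ± 0.20 at 24 h and 0.14 ± 0.20 at 6 h, with overlapping arrays at both times. In A549 NOTCH3 differed by 0.04 ± 0.079 at 24 h and by 0.16 ± 0.079 at 6 h.

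NOTCH2 in H460a at 24 h was between 9.82 and 10.08 on the 4 GSI arrays, against 10.19 to 10.26 on the 4 vehicle arrays. The arrays did not overlap, and the difference of -0.24 ± 0.077 was not called (limma adjusted p = 0.525). Arrays that do not overlap were found for 1 of the 9 genes in A549 at 24 h (JAG2), against 12.2% of all genes, and for 2 at 6 h (JAG2 and DLL1), against 12.5%. In H460a they were found for 2 at 24 h (NOTCH2 and NOTCH3), against 3.38%, and for 2 at 6 h (NOTCH3 and JAG1), against 6.73%.

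NOTCH1, NOTCH4, DLL3 and DLL4 were not called in any comparison of GSI with vehicle, and their differences lay between -0.16 and 0.23. The 0.23 ± 0.10 was that of DLL3 in H460a at 6 h. It rested on vehicle replicate 3, at 7.82 against 8.36 to 8.39 on the other 3, and was 0.09 without the arrays that stand apart. Over the 9 genes the median difference in A549 was -0.05 at 24 h and 0.04 at 6 h, against 0.007 and 0.021 for all genes. In H460a it was 0 at 24 h and -0.01 at 6 h, against -0.005 and 0.002.

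The effect of GSI was not shown to differ between lines or times for any of the 9 genes. For A549 minus H460a, 0 of the 9 were called at 24 h, against 0.637% of all genes, and 0 at 6 h, against 0.121%. At an unadjusted p under 0.05 in limma these were 1 at 24 h (JAG2) and 3 at 6 h (NOTCH3, JAG2 and DLL1). The NOTCH3 effect at 6 h differed by 0.40 ± 0.11 (limma adjusted p = 0.105). For 24 h minus 6 h, 0 were called in A549, against 3.71% of all genes, and 0 in H460a, against 0.0101%. The counts at an unadjusted p under 0.05 were 4 in A549 (NOTCH2, JAG1, DLL1 and DLL4) and 0 in H460a. The shares of all genes in this paragraph are for adjusted calls. None is given for the unadjusted counts between lines or times, so those cannot be read as an excess. The JAG1 effect in A549 differed by -0.48 ± 0.15 between times (limma adjusted p = 0.0585).

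The other genes of the pathway were taken from 8 lists with 62 genes, of which 59 were measured. In A549 at 24 h, 3 of the 59 fell and 0 rose with GSI, against 0.885% lower and 1.32% higher of all genes, and those that fell were the target genes HES1, HEY1 (-0.62 ± 0.078) and HES4 (-0.50 ± 0.10). At 6 h in A549, 3 of the 59 fell and 9 rose, against 1.51% lower and 11.6% higher of all genes. The 3 that fell were again HES1, HES4 (-0.46 ± 0.10) and HEY1 (-0.41 ± 0.078). Those that rose included both sheddases, ADAM17 (0.31 ± 0.081) and ADAM10 (0.28 ± 0.086), and the acetyltransferases KAT2B (0.49 ± 0.11) and EP300 (0.38 ± 0.11). After quantile normalization 4 of these 12 were still called, namely KAT2B, HES1, HES4 and HEY1. The low mean intensity of the A549 vehicle arrays at 6 h moves with these rises, and its part in them was not tested. In H460a 0 of the 59 were called by limma at either time. At an unadjusted p under 0.05 there were 7 at 24 h and 8 at 6 h, without a share of all genes to set beside them. The median difference of the 59 was between -0.01 and 0.03 in the 4 comparisons.

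Between the lines, 25 of the 59 pathway genes were higher and 16 lower in A549 vehicle, against 28.8% higher and 27.9% lower of all genes. Of the 9 non-canonical ligands, DNER, a membrane protein known mainly from neurons, averaged 7.44 in A549 and 12.61 in H460a (-5.17 ± 0.071). CNTN1, a contactin of the nervous system, averaged 11.24 in A549 and 6.56 in H460a, where it was below the background. Of the targets, HES1 averaged 9.81 in A549 and 6.56 in H460a, again below the background there, and HEY1 averaged 7.69 in A549 and 8.31 in H460a (-0.62 ± 0.055). All 5 measured gamma-secretase subunits differed, against 56.7% of all genes, with PSENEN (1.40 ± 0.17), APH1B (0.95 ± 0.051) and PSEN2 (0.52 ± 0.054) higher in A549 and NCSTN (-0.91 ± 0.040) and APH1A (-0.48 ± 0.094) lower. RBPJ, the DNA-binding partner of all 4 receptors, was lower in A549 (-0.67 ± 0.060).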

How the data were processed

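RNA levels of 32 samples were measured on Affymetrix arrays. Per the submitters' processing notes, the authors made the deposited intensity values with RMA. Its version is not stated there. Their range shows a linear scale, and since the 90th percentile ran from 871 to 1147.5 over the arrays, whether RMA's quantile step was applied is unknown. Here log2 was taken of the deposited values, with no other scaling in the reported fit. Left out were 62 control probe sets, 1801 annotated to more than a single gene and 11721 without a gene. The other 41091 cover 19775 genes, each represented by its brightest probe set on average.

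The fit used limma 3.58.1 in R 4.3.3, with a mean for each of 8 groups over all arrays, and p-values were Benjamini-Hochberg adjusted over all genes within each comparison. The steps were tested on simulated data. The named genes are the 9 members, HES1, up to 4 called genes of each pathway list per comparison with GSI, and the 3 genes most like each member called there. The gamma-secretase subunits, DNER, CNTN1 and RBPJ, named for the line difference, were chosen after their values were seen. The members and lists were chosen with earlier results of these data known, and the comparison of time changes between lines was added after the values were seen.

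Alternatives were quantile normalization, centring, other uses of several probe sets, fewer arrays in the fit, a filter on low genes, array weights, a trended and robust eBayes, a replicate block, a minimum difference of 0.58, and leaving out 3 arrays or each array in turn. A label note on embryos was not used. Promoters came from RefSeq tables of GRCh38.p14. Figures used matplotlib 3.10.9 and pandas 2.3.3 in Python 3.11.15.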

Additional observations from a re-analysis of the deposited data

Results flagged for a closer look

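Within 7 of 72 groups of 4 arrays, the highest or lowest array of a gene stood apart from the other 3 by Dixon's test. Chance gives about 1 in 20 such groups. The share over all genes is not given, so the 7 cannot be read as an excess. JAG2 stood apart in 3 groups: at 8.67 on H460a GSI 24 h replicate 1 (8.76 to 8.77 on the other 3), at 8.51 on H460a GSI 6 h replicate 3 (8.65 to 8.68), and at 8.40 on A549 vehicle 24 h replicate 3 (8.29 to 8.30). NOTCH4 did so at 6.89 on A549 GSI 24 h replicate 4 (6.98 to 6.99) and at 6.52 on H460a vehicle 6 h replicate 3 (6.95 to 6.99). DLL1 did so at 5.57 on A549 GSI 24 h replicate 4 (5.49 to 5.50). DLL3 did so at 7.82 on H460a vehicle 6 h replicate 3 (8.36 to 8.39), the array whose ACTB 3' minus 5' difference was 2.19.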

How the results depend on the processing

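Of 99 pairs of a gene and a comparison, 16 were called, 11 were called only under an alternative, and 72 were never called. Of the 72, 24 changed sign under some alternative. The JAG2 call in A549 at 24 h was lost only when a difference of at least 0.58 was required, and its value ranged from -0.36 to -0.28 over all alternatives. The cause of changed calls was not tested.

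The count of the 9 genes called in A549 at 6 h, 2 as reported, was 1 with either quantile normalization, with the mean of all probe sets, with array weights and with the replicate block, and 0 with the compared arrays alone, a minimum difference of 0.58, or without the 3 arrays that stand apart. It was 3 with only the arrays of the line and with trend and robust, where JAG1 was called too, as higher with GSI (0.30, adjusted p = 0.0432 and 0.0392). With low genes left out JAG1 was also called (adjusted p = 0.0277). Leaving out each array in turn gave 0 to 5. A minimum difference of 0.58 left 0 called in A549 at 24 h, 1 and 0 for time in A549 and H460a, and 2 between lines. With that minimum, 64 of all genes were called in A549 at 24 h and 33 at 6 h. No such total is given for time or between lines, so those counts cannot be read as an excess. For the GSI effect in A549 minus H460a at 6 h the count of 0 became 1 with low genes left out, and leaving out each array gave 0 to 1. For the effect at 24 h minus 6 h in A549 it became 1 with low genes left out, with trend and robust, and with array weights, and leaving out each array gave 0 to 2. NOTCH2 between lines was 0.12, against -0.03 as reported, after quantile normalization of all arrays together (adjusted p = 0.0153).

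Counts over all genes in A549 at 6 h ranged from 22 (without the 3 arrays) to 3180 (low genes left out), beside 2600 as reported, and from 167 to 3834 when each array was left out. In A549 at 24 h they ranged from 64 to 1169, beside 437. In H460a they ranged from 2 to 110 at 6 h, beside 19, and from 0 to 10 at 24 h, beside 1. The labels do not say whether replicate numbers pair the samples, and the correlations between arrays cannot decide it. Same-numbered deviations correlated at -0.35 to 0.32 and exceeded 0.1 in 5 of 16 pairs. Of 16 GSI arrays, 6 correlated best with their own number. With the replicate block 1775 genes were called in A549 at 6 h, 356 at 24 h, 4 in H460a at 6 h and 0 at 24 h.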
